A study of Mus musculus with 24 samples.

Results

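The subject is 7 genes of the corticotropin-releasing hormone (CRH) and glucocorticoid stress system, chosen by symbol and read in every cell type: the hormone gene Crh, its binding protein gene Crhbp, its receptor genes Crhr1 and Crhr2, the glucocorticoid receptor gene Nr3c1, the mineralocorticoid receptor gene Nr3c2, and Fkbp5. They are 7 of the 34039 genes of the RNA table and all of them were among the 22155 genes counted in both strains. Amygdala was taken from males of 2 inbred strains, DBA and BL6, at 10 to 16 weeks of age, and no treatment is named in the labels. Each library pooled tissue of about 2 animals, and each strain had 2 RNA and 2 ATAC libraries. For RNA, a sort on the neuronal protein NeuN aimed at 75% neuronal and 25% other nuclei, so the sort bears on the shares of cell classes, and for ATAC no NeuN was used. Cell type names are those of the deposited tables, in which Exc marks excitatory neurons, Inh inhibitory neurons and NN non-neuronal nuclei.

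CRH is a peptide released by neurons of the hypothalamus and also by neurons of the amygdala and cortex, and it acts on CRHR1 and CRHR2, receptors that couple to cyclic AMP signalling. The binding protein CRHBP holds the peptide in solution away from its receptors. In the body, CRH starts the hormone cascade that ends in glucocorticoid release from the adrenal gland. Glucocorticoids enter cells and bind NR3C1 and NR3C2, transcription factors of which NR3C2 has the higher affinity for the hormone. FKBP5 is a cochaperone of the NR3C1 complex that lowers its hormone binding, and its own gene is switched on by glucocorticoids, which makes its RNA a common readout of receptor activity.

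Levels are in CPM, a gene's counts in a cell type of a library scaled to a common total of 1000000 for that column, and n is the number of libraries. RNA libraries held 30693629 to 66304405 counts from 2867 to 8079 nuclei, and ATAC libraries 66535381 to 86927891 counts. Of 22 cell types 20 were compared, those with 10 or more nuclei and 50000 or more counts in each of the 4 libraries; Exc-Strip2 and NN-Endo-SMC-Peri were not. Non-neuronal nuclei made up 45.9% and 30.1% of nuclei in the DBA libraries and 36.6% and 53.0% in the BL6 libraries, and DBA library 2 had the most counts per nucleus, at 11210, against 6935 to 8207 in the other libraries. Leading markers matched the names of NN-Astro (Slc1a3 at 1796 ± 128 CPM), NN-MGC (the microglial Cx3cr1 at 1417 ± 232), NN-OPC (the precursor gene Pdgfra at 1165 ± 157) and Inh-Sst (Sst at 1045 ± 173; SD, n = 4 each). With 27 and 18 nuclei in DBA libraries and 10 and 35 in BL6 libraries, NN-Endo-VLMC was small, and the endothelial part of its name went against the data: of 6 endothelial and mural markers 5 (Cldn5, Flt1, Vtn, Rgs5 and Kcnj8) were at 0 in all 4 libraries. Of 4 leptomeningeal markers 3 were detected, with sums of 254.5 and 338.5 CPM in DBA libraries and 379.7 and 451.2 CPM in BL6 libraries, and Slc6a13 was at 0. The 3 intercalated neuron markers summed to 1577 and 1336 CPM in DBA libraries and 2007 and 1370 CPM in BL6 libraries there, so values of this type below are values of nuclei of mixed markers.

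Start regions are shown for Crhbp and Crhr2, whose RNA was highest in somatostatin interneurons, and for Fkbp5, whose RNA was read in every type. RefSeq promoters (build GRCm38.p6, 250 bases before to 50 after the start) matched 5 of the 7 genes by symbol, all but Crh and Nr3c1. The 3 below are written 5′ to 3′ on the gene's strand, with motif letters in capitals. Crhbp is at chr13:95444782-95445081 and Crhr2 at chr6:55132967-55133266, each with the letters TATAAA of the TATA box motif. Fkbp5 is at chr17:28486100-28486399, with GC boxes, CCAAT boxes on either strand and an E-box. All 3 genes lie on the minus strand.
Crhbp: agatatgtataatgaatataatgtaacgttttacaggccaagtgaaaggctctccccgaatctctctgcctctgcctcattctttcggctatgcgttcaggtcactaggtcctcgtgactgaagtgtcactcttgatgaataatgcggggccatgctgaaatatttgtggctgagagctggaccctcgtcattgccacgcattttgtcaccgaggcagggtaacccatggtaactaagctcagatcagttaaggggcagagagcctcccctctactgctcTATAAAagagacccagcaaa
Crhr2: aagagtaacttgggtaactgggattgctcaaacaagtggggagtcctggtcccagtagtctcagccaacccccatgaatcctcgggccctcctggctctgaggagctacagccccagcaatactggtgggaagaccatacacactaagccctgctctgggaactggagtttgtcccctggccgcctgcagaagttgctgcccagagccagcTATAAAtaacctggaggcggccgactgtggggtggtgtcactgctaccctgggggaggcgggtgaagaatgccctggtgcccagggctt
Fkbp5: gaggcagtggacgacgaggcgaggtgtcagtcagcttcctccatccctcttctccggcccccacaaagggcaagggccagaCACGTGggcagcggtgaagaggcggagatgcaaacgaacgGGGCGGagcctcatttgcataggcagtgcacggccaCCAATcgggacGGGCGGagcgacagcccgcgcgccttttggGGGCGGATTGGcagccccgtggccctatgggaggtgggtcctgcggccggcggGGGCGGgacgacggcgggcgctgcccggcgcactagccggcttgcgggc
The GC content was 48.0% in Crhbp and 59.0% in Crhr2, against 70.7% in Fkbp5, 75.0% in Crhr1 and 65.7% in Nr3c2, where the median of all promoters was 52.7%. The TATA box motif TATAAA was searched on the gene's strand, and 8.32% of the 32851 promoters hold it. It began 39 bases upstream of the Crhr2 start. In Crhbp it began 30 bases downstream of the RefSeq start, inside the annotated gene. The GC box GGGCGG, on either strand, was found 4 times in Fkbp5, 3 times in Nr3c2 and once in Crhr1, and 35.7% of promoters hold it. The CCAAT box was found 2 times in Fkbp5 and 3 times in Nr3c2 (either strand; 37.4% of promoters). The E-box CACGTG, which reads the same on both strands, was found once in Fkbp5 (7.15% of promoters). The palindromic glucocorticoid response element, the motif AGAACA that makes up its arms, and the cyclic AMP response element TGACGTCA, each on both strands, were in none of the 5 windows. Of all promoters, 0.00913% hold the palindrome, 19.0% AGAACA and 1.79% TGACGTCA.

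Crh (chr3:19693401-19695396, GRCm38.p6, from RefSeq) had its RNA concentrated in a single interneuron type. Inh-Htr3a, which carries the interneuron markers Vip and Cnr1, had 33.7 and 38.9 CPM in the DBA libraries and 42.0 and 40.5 CPM in the BL6 libraries. This type was 1.61% of nuclei and gave 41.9% ± 9.94 of all Crh counts (SD, n = 4). Every Inh-Htr3a library lay above every library of every other tested type. The next type, Inh-Lypd6b, read 0 and 18.3 CPM in DBA libraries and 9.64 and 0 CPM in BL6 libraries. The other tested types averaged 2.37 CPM or less, and 3 of them had no Crh count at all. With 333 Crh counts in the whole table, levels under about 1 CPM rest on few molecules, and a low reading in a type does not show that its cells lack the RNA. The lncRNA gene Gm42189 overlaps Crh, so reads from the pair could not be told apart here.

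**Figure D1:**
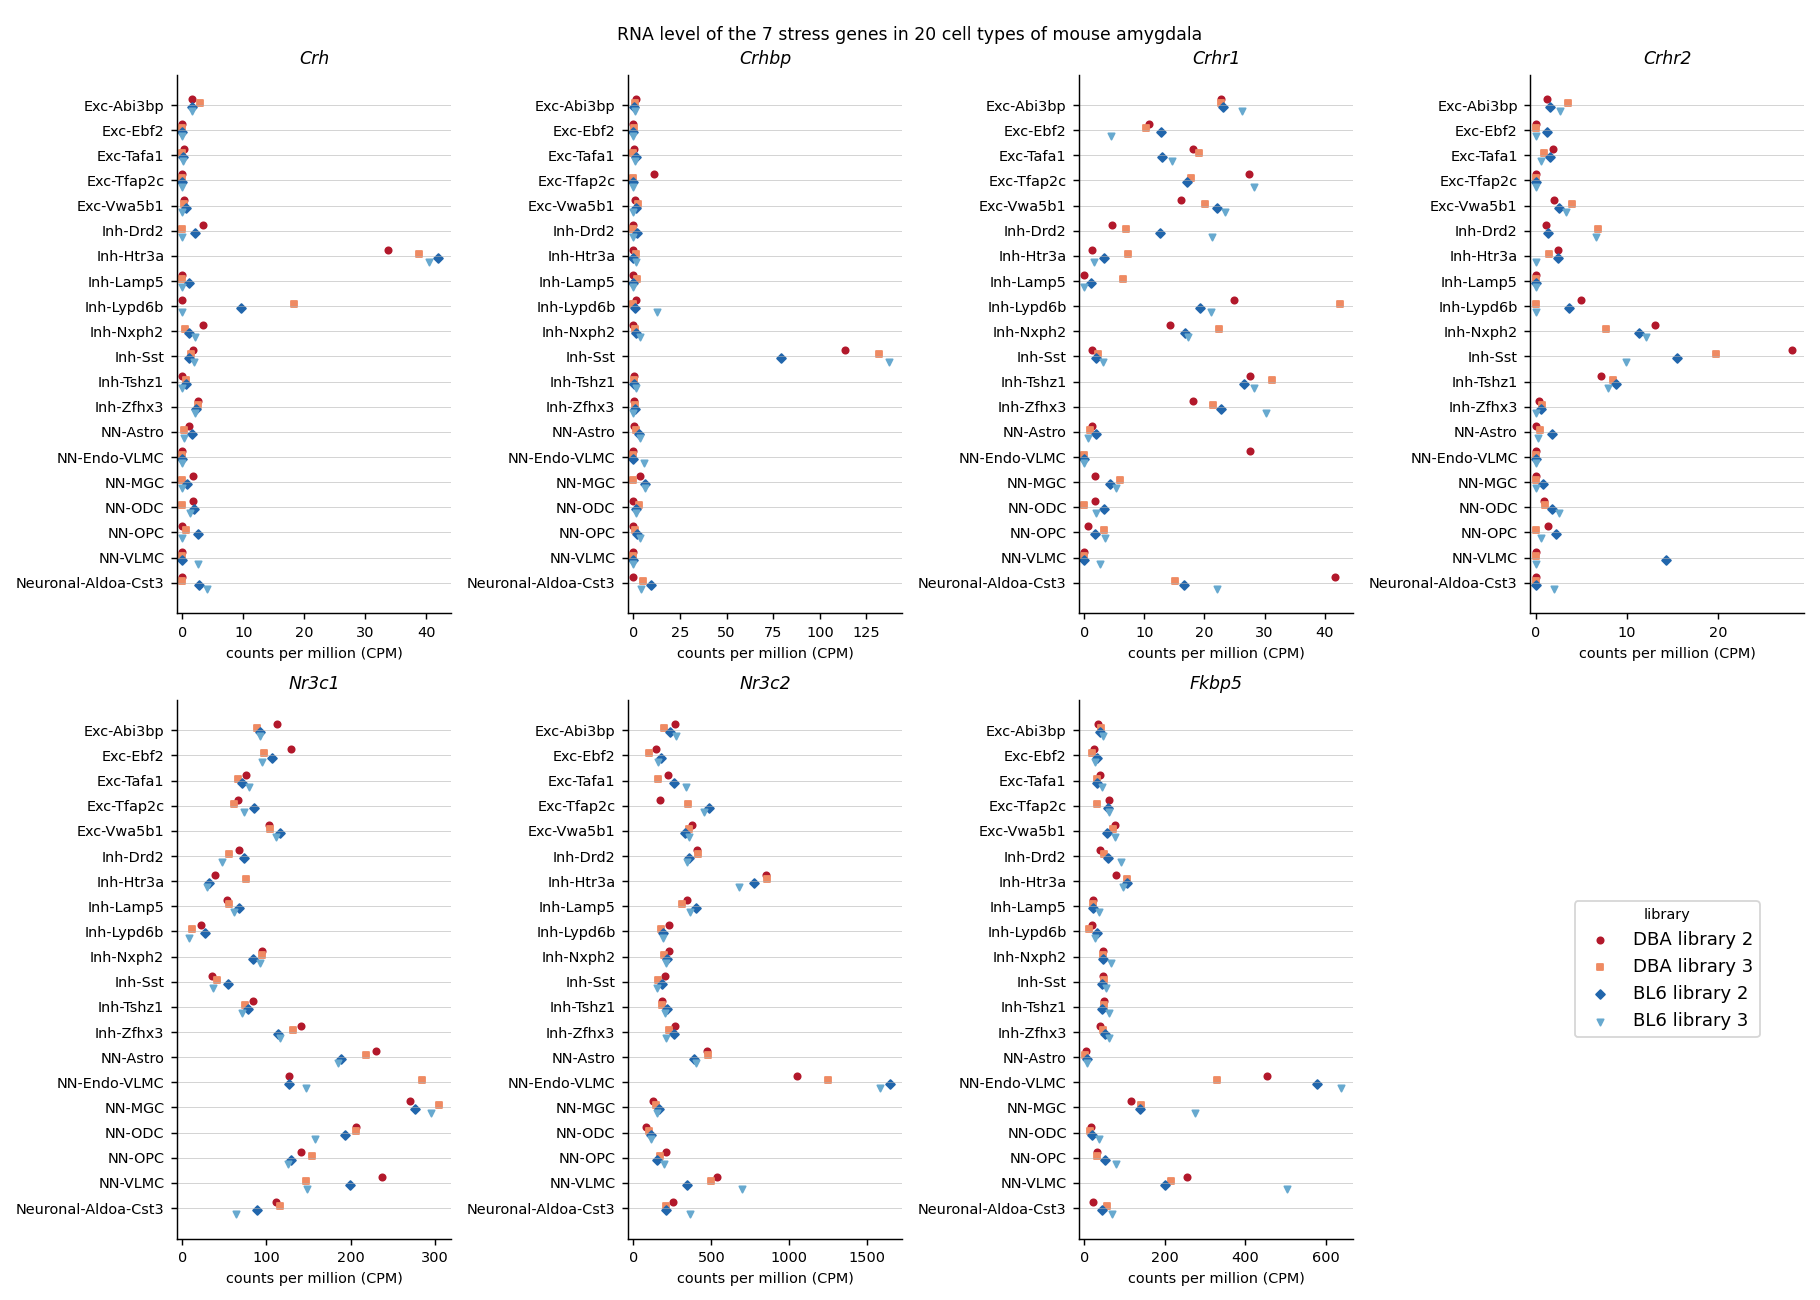
RNA level (CPM, x axis, each panel with its own scale) of the 7 genes in 20 cell types, 1 point per library, with DBA libraries in red and orange and BL6 libraries in shades of blue. Crh peaks in Inh-Htr3a and Crhbp in Inh-Sst, while Nr3c1, Nr3c2 and Fkbp5 have counts in every type.

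Crhbp (chr13:95431376-95444831) was read mainly in somatostatin interneurons. Inh-Sst held 113.6 and 131.7 CPM in DBA libraries and 79.4 and 137.3 CPM in BL6 libraries, and the strains overlapped. That type was 4.21% of nuclei and gave 84.1% ± 8.09 of Crhbp counts (SD, n = 4). The next type by mean, Neuronal-Aldoa-Cst3, averaged 4.68 ± 3.97 CPM, and no other type exceeded 5 CPM on average. Per nucleus, Inh-Sst held 1.37 Crhbp counts. The hormone and binding protein RNAs were highest in different interneuron types: Inh-Htr3a averaged 0.749 ± 0.866 CPM of Crhbp and Inh-Sst averaged 1.55 ± 0.329 CPM of Crh.

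Crhr1 (chr11:104130463-104175523), which encodes the main CRH receptor of the forebrain, was spread over many neuron types. It was low in Inh-Htr3a and Inh-Sst, the types highest for Crh and Crhbp. In Inh-Tshz1, the highest type, it had 27.6 and 31.2 CPM in DBA libraries and 26.5 and 28.3 CPM in BL6 libraries. Inh-Lypd6b came next, as it did for Crh, with 24.9 and 42.7 CPM in DBA libraries and 19.3 and 21.0 CPM in BL6 libraries. Exc-Abi3bp, the highest excitatory type, had 22.8 and 22.8 CPM in DBA libraries and 23.1 and 26.3 CPM in BL6 libraries, and Inh-Zfhx3 had 18.2 and 21.4 CPM in DBA libraries and 22.7 and 30.2 CPM in BL6 libraries. In all, 10 of 20 types averaged 10 CPM or more, each of them neuronal by name. Among them was Neuronal-Aldoa-Cst3, at 23.8 ± 12.2 CPM, which ranked 3 by CPM but 11 per nucleus, with 0.0914 counts. No pair of neighbours in the order of the 20 types was separated by its libraries' ranges. Inh-Htr3a averaged 3.31 ± 2.74 CPM, Inh-Sst 2.15 ± 0.752 CPM and Inh-Lamp5 1.90 ± 3.08 CPM, and the 4 libraries of Inh-Htr3a and Inh-Sst lay below every library of Inh-Tshz1. NN-Astro, NN-ODC and NN-OPC averaged 1.22, 1.77 and 2.29 CPM. The lncRNA gene Gm35469 overlaps Crhr1.

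Crhr2 (chr6:55090048-55133016), whose product binds the urocortin peptides as well as CRH, was low and reached 10 CPM on average in 2 types. Inh-Sst had 28.1 and 19.8 CPM in DBA libraries and 15.6 and 9.94 CPM in BL6 libraries. Inh-Nxph2 had 13.1 and 7.72 CPM in DBA libraries and 11.4 and 12.2 CPM in BL6 libraries. Inh-Tshz1 had 7.14 and 8.52 CPM in DBA libraries and 8.84 and 7.95 CPM in BL6 libraries. Inh-Sst gave 25.9% ± 10.9 of the Crhr2 counts, Inh-Nxph2 26.0% ± 3.52 and Inh-Tshz1 19.7% ± 5.14 (SD, n = 4). Inh-Tshz1 ranked 1 of 20 for Crhr1 and 3 for Crhr2, and Inh-Nxph2 ranked 8 for Crhr1 and 2 for Crhr2. Inh-Sst had Crhr2 with little Crhr1. The correlation of the receptors over the 20 types was 0.0501 (Pearson, log2 of mean CPM plus 1; a description, since the types share libraries).

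Nr3c1, on chromosome 18, had counts in every type and its highest shares in glia. NN-MGC had 270.4 and 304.5 CPM in DBA libraries and 276.1 and 295.0 CPM in BL6 libraries, above all libraries of every other tested type except 1, DBA library 3 of NN-Endo-VLMC at 285.1. NN-Astro followed with 230.0 and 218.1 CPM in DBA libraries and 188.8 and 185.3 CPM in BL6 libraries, and NN-ODC with 206.3 and 206.3 CPM in DBA libraries and 192.8 and 157.7 CPM in BL6 libraries. Among neurons Inh-Zfhx3 was highest, at 125.7 ± 12.9 CPM. Inh-Lypd6b was lowest at 17.3 ± 8.49 CPM. The next types, Inh-Sst at 41.7 ± 8.45 CPM and Inh-Htr3a at 44.2 ± 21.7 CPM (SD, n = 4 each), stood above it, and the ranges of Inh-Sst and Inh-Lypd6b did not overlap. The interneurons that led for Crhbp and Crh were among the 3 lowest types for Nr3c1.

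The order changed when counts were divided by nuclei in place of total counts, and glial nuclei held fewer counts. Non-neuronal nuclei averaged 3840 to 5598 counts per library, against 9357 to 18030 in excitatory and inhibitory nuclei. Per nucleus, Nr3c1 was highest in Inh-Zfhx3, at 1.52 counts, and NN-MGC, with 0.782, ranked 11 of 20. The glial lead in Nr3c1 is a lead in the share of RNA, and fewer molecules per nucleus cannot be told apart from shallower capture here.

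**Figure D2:**
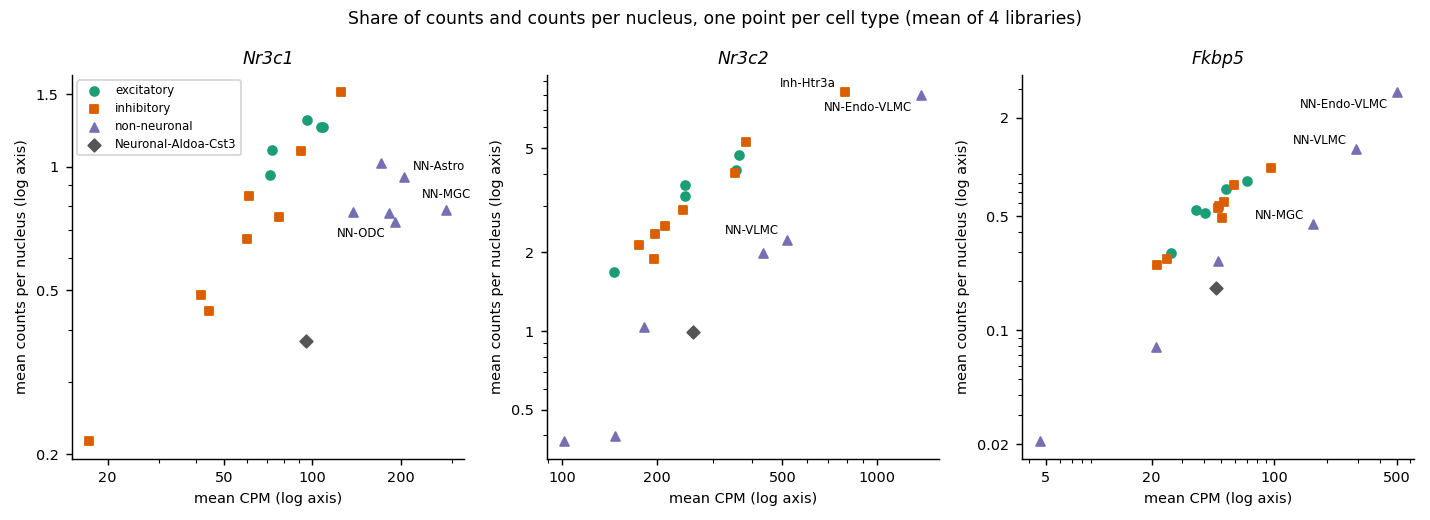
Mean CPM (x, log axis) and mean counts per nucleus (y, log axis) of Nr3c1, Nr3c2 and Fkbp5 in 20 cell types, 1 point per type and 4 libraries behind each, with the 3 types of highest CPM named. Most non-neuronal types lie below the band of excitatory and inhibitory types, and for Nr3c1 the highest type is NN-MGC by CPM and Inh-Zfhx3 by counts per nucleus.

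Nr3c2 (chr8:76898083-77245012) had the largest counts of the 7 genes, 49224 in all, against 19154 for Nr3c1. Transcripts of these genes differ in length and their introns, read in nuclei, differ more, so the gene counts give no order of level between them. NN-Endo-VLMC had 1051 and 1247 CPM in DBA libraries and 1645 and 1579 CPM in BL6 libraries. Inh-Htr3a came next, with 848.5 and 855.3 CPM in DBA libraries and 770.3 and 677.4 CPM in BL6 libraries, and its range did not touch that of NN-Endo-VLMC. NN-VLMC averaged 518.6 ± 147 CPM and NN-Astro 435.3 ± 46.6 CPM, and NN-ODC was lowest at 101.7 ± 14.9 CPM (SD, n = 4 each). Inh-Htr3a was the neuronal type with the highest Nr3c2 and one of the 3 lowest for Nr3c1, and per nucleus its 8.20 counts of Nr3c2 were the most of any type. By CPM, NN-ODC and NN-MGC stood the other way round, near the bottom for Nr3c2 and near the top for Nr3c1. Per nucleus they ranked 20 and 19 for Nr3c2, but 15 and 11 for Nr3c1. The correlation of the receptors' CPM over the 20 types was 0.00102. Genes annotated within Nr3c2 (Gm10649, Gm23260 and Gm24838) could share its reads.

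Fkbp5 (chr17:28398753-28486149) was highest by CPM in NN-Endo-VLMC, the type of mixed markers, then in NN-VLMC and NN-MGC. It was lowest in astrocytes, and Gm22146 is annotated within it. NN-Endo-VLMC had 453.7 and 329.6 CPM in DBA libraries and 578.6 and 637.3 CPM in BL6 libraries, and NN-VLMC had 255.8 and 216.5 CPM in DBA libraries and 199.7 and 504.0 CPM in BL6 libraries. NN-MGC had 114.9 and 140.4 CPM in DBA libraries and 138.9 and 275.5 CPM in BL6 libraries. The highest neuronal type was Inh-Htr3a, at 96.3 ± 12.9 CPM. Per nucleus, NN-Endo-VLMC and NN-VLMC again ranked 1 and 2, Inh-Htr3a ranked 3 with 0.985 counts, and NN-MGC ranked 13 with 0.444. NN-Astro had 4.26 and 1.77 CPM in DBA libraries and 6.79 and 5.57 CPM in BL6 libraries, below every library of every other tested type. Its Nr3c1 was nevertheless the second highest of the 20 types by CPM. BL6 library 3 gave the highest Fkbp5 reading in 15 of 20 types, BL6 library 2 in 4, DBA library 2 in 1 and DBA library 3 in none.

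**Figure D3:**
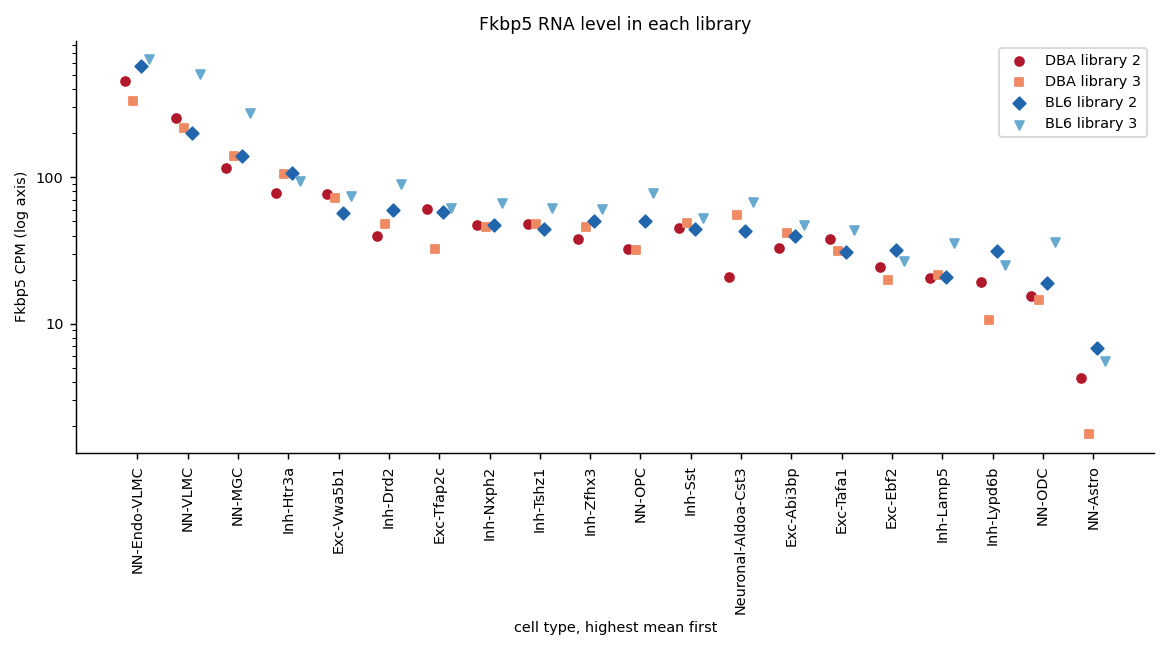
Fkbp5 CPM (log axis) in each of the 4 libraries for 20 cell types ordered by mean level. BL6 library 3 (light blue triangles) is the highest point in 15 of 20 types, and NN-Astro is lowest throughout.

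A few genes followed the members across cell types. By Pearson correlation of log2 mean CPM plus 1 over the 20 types, among 12929 genes that reached 10 CPM, the 3 most like Crh were Grpr (0.897), Tshr (0.854) and Htr3a (0.806), each highest in Inh-Htr3a. The most like Crhbp was Sst (0.863), followed by Fam240b (0.801) and Cox6a2 (0.761), each highest in Inh-Sst. Crhr1 was most like Begain (0.912), Ryr1 (0.890) and Cdh18 (0.883), and Crhr2 was most like Calb1 (0.741), Moxd1 (0.711) and Pxylp1 (0.680). For Nr3c1 they were Relb (0.849), P4ha1 (0.844) and Commd1 (0.836), for Nr3c2 Ccdc173 (0.809), Pgf (0.787) and Cdc25b (0.778), and for Fkbp5 Zbtb8a (0.827), Mnat1 (0.824) and Abracl (0.814). These are the best of many candidates over types that share libraries and are given as a description. Within 1 strain several correlations were lower. Commd1 with Nr3c1 had 0.319 in DBA and 0.798 in BL6, and Pxylp1 with Crhr2 had 0.711 in DBA and 0.400 in BL6.

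DBA was then set against BL6 within each cell type, to ask where the strains differ in this system. Of 76 member-by-type pairs with enough counts to test, 3 were called at an adjusted p under 0.05 (edgeR's quasi-likelihood test, Benjamini-Hochberg adjustment over all genes of the type), where 5.78% of all gene-by-type pairs were called. Nr3c1 and Nr3c2 were higher in DBA in NN-Astro and Fkbp5 was lower in DBA in NN-OPC. The share called among the members was no greater than that background. In all, 16 pairs had an unadjusted p under 0.05. The share of all gene-by-type pairs under that p was not computed, so no excess is read from this count. DESeq2 called 1 of the pairs, Nr3c2 in NN-Astro. Nr3c1, Nr3c2 and Fkbp5 could be tested in 20 types each, Crhr1 in 8, Crhr2 in 5, Crhbp in 2 and Crh in 1, so for the peptide system the data bear on few types.

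**Figure D4:**
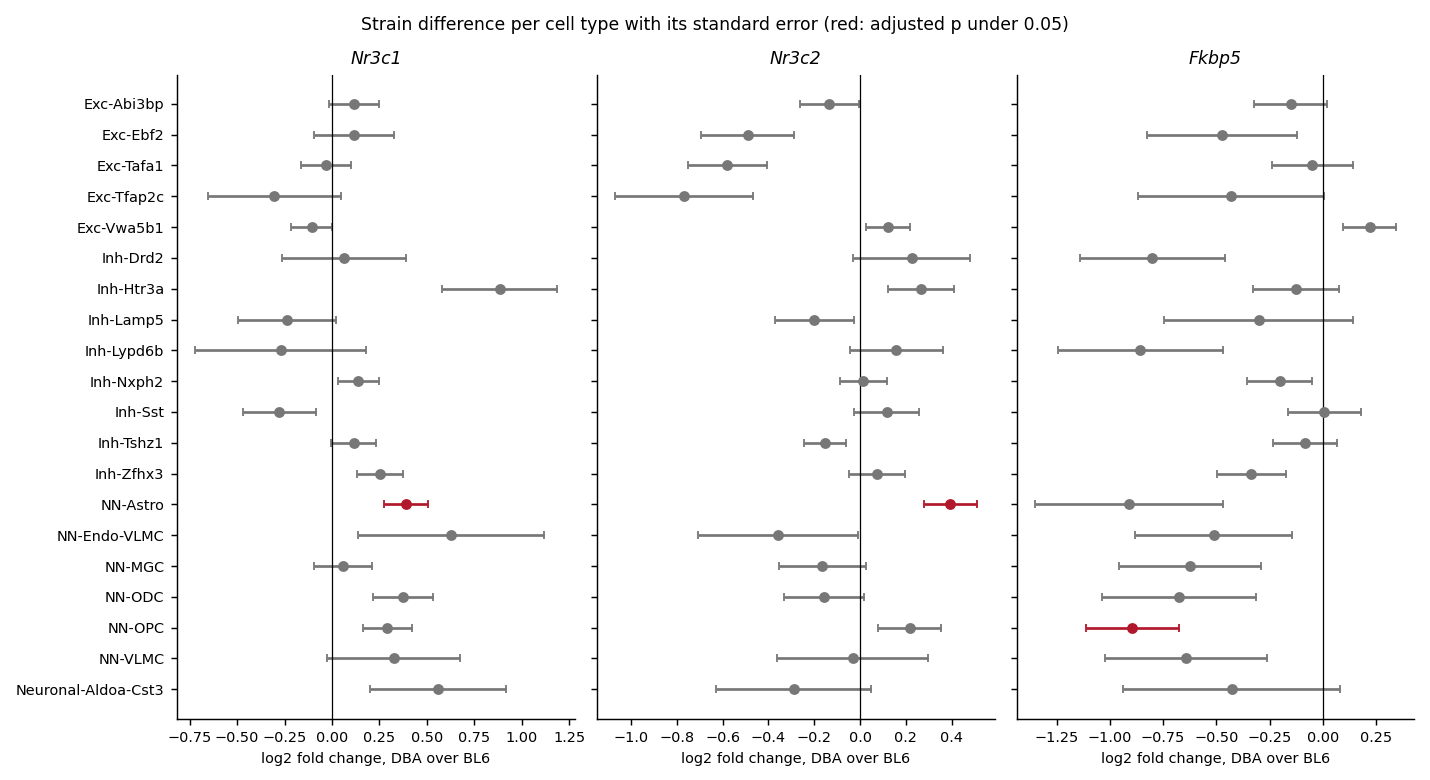
Strain difference (log2 fold change, DBA over BL6, with 1 standard error) of Nr3c1, Nr3c2 and Fkbp5 in each of 20 cell types. The 3 pairs past the threshold are red: Nr3c1 at 0.39 and Nr3c2 at 0.39 in NN-Astro, and Fkbp5 at -0.89 in NN-OPC.

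In astrocytes both steroid receptor genes rose in DBA. Nr3c1 had 230.0 and 218.1 CPM in DBA libraries against 188.8 and 185.3 CPM in BL6 libraries, a log2 fold change of 0.39 ± 0.12 (SE; adjusted p = 0.0466, edgeR), and Nr3c2 had 471.4 and 479.1 CPM in DBA libraries against 388.6 and 402.0 CPM in BL6 libraries, a log2 fold change of 0.39 ± 0.11 (adjusted p = 0.0356, edgeR). The strains did not overlap for either gene, and 8.69% of the genes tested in NN-Astro were called. Both calls were lost when any 1 of the 4 libraries was left out, with fold changes of 0.33 to 0.46 for Nr3c1 and 0.36 to 0.43 for Nr3c2. They were also lost when libraries were scaled by total counts alone, with fold changes of 0.29 and 0.29 (adjusted p = 0.117 and 0.0846, edgeR). That scaling took the median of all genes in NN-Astro from -0.012 to -0.12. Summed oligodendrocyte markers in NN-Astro were 61.8 and 69.0 CPM in DBA libraries and 204.4 and 169.7 CPM in BL6 libraries, and summed microglia markers 29.0 and 26.5 CPM in DBA libraries and 55.2 and 45.7 CPM in BL6 libraries, with each of the 5 genes of each list detected, while the 5 astrocyte markers summed to 2685 and 2589 CPM in DBA libraries and 2393 and 2670 CPM in BL6 libraries. Neuronal marker lists were lower in DBA too: the 5 excitatory markers summed to 56.2 and 73.5 CPM in DBA libraries and 102.1 and 92.0 CPM in BL6 libraries, and the 4 inhibitory markers to 371.5 and 342.1 CPM in DBA libraries and 382.5 and 451.2 CPM in BL6 libraries. So were the lists of Sst, Vip and Htr3a, Lamp5 and central amygdala neurons, endothelial and mural cells, and leptomeningeal cells, while those of striatal-like and intercalated neurons and of oligodendrocyte precursors overlapped. The part of these marker RNAs in the receptor differences was not tested.

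In oligodendrocyte precursors Fkbp5 fell to 32.5 and 31.9 CPM in DBA libraries, against 50.6 and 77.6 CPM in BL6 libraries. The log2 fold change was -0.89 ± 0.22 (SE; adjusted p = 0.0116, edgeR), the strains did not overlap, and 6.27% of the genes tested in NN-OPC were called. Without BL6 library 3 the fold change was -0.57 and the call was lost (adjusted p = 0.206), and DESeq2 did not make it (adjusted p = 0.134). The 5 oligodendrocyte markers in NN-OPC summed to 420.1 and 533.1 CPM in DBA libraries and 326.0 and 214.6 CPM in BL6 libraries, whereas the 3 precursor markers summed to 2138 and 2056 CPM in DBA libraries and 1956 and 2371 CPM in BL6 libraries. Other lists were lower in DBA there: the 5 excitatory markers at 29.1 and 43.4 CPM in DBA libraries and 60.4 and 53.6 CPM in BL6 libraries, the 4 Vip and Htr3a interneuron markers at 25.7 and 28.1 CPM in DBA libraries and 64.4 and 46.1 CPM in BL6 libraries, and the 5 microglia markers at 25.7 and 37.0 CPM in DBA libraries and 39.5 and 42.0 CPM in BL6 libraries. The lists of inhibitory, Sst, Lamp5 and intercalated neurons and of endothelial and leptomeningeal cells were lower in DBA as well, and those of central amygdala and striatal-like neurons were higher. The part of these markers in the Fkbp5 result was not tested. Across the 20 types the Fkbp5 estimate was below 0 in 18, with a median of -0.43 and values between -0.91 in NN-Astro and 0.22 in Exc-Vwa5b1. The same BL6 library 3 enters every one of those estimates, so their common sign is not a count of independent results.

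Other estimates were of similar size and did not pass. Crhr2 in Inh-Sst, with the values given above, had a log2 fold change of 0.84 ± 0.28 (adjusted p = 0.0953, edgeR) and no overlap of the strains, while 5.41% of genes were called there. It ran from 0.56 without DBA library 2 to 1.29 without BL6 library 2, and it passed without BL6 library 2 (adjusted p = 0.0279, edgeR), without DBA library 3 (0.0125) and with no filter (0.0434). The 3 somatostatin interneuron markers in Inh-Sst summed to 1653 and 1687 CPM in DBA libraries and 1073 and 1445 CPM in BL6 libraries, and their part was not tested. Nr3c2 in Exc-Tafa1 had 224.3 and 160.7 CPM in DBA libraries and 260.2 and 334.5 CPM in BL6 libraries, a log2 fold change of -0.58 ± 0.17 (adjusted p = 0.0773, edgeR). This value ran from -0.34 without DBA library 3 to -0.84 without DBA library 2, and it passed without DBA library 2 (adjusted p = 0.00742, edgeR), without BL6 library 2 (0.0145), with no filter (0.0338) and with every row of the table (0.0443). Nr3c1 in Inh-Htr3a had 38.7 and 76.3 CPM in DBA libraries and 32.3 and 29.6 CPM in BL6 libraries, a log2 fold change of 0.88 ± 0.30 (adjusted p = 0.144, edgeR), and 0.34 without DBA library 3. In the types where the peptide genes were highest no strain difference was detected: the log2 fold change was -0.16 ± 0.28 for Crh in Inh-Htr3a (adjusted p = 0.884) and 0.27 ± 0.20 for Crhbp in Inh-Sst (adjusted p = 0.613, edgeR for both). The Crhbp value was -0.12 without BL6 library 2 and 0.64 without BL6 library 3 (adjusted p = 0.843 and 0.00349, edgeR), so each sign rests on which BL6 library is kept.

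Summed over classes, no member passed. In sums over types, a shift in the mix of types and a change per nucleus cannot be told apart. By edgeR, 0 of 7 members were called in all nuclei (background 4.88%, 0 with an unadjusted p under 0.05), 0 of 7 in excitatory neurons (9.67%, 1), 0 of 7 in inhibitory neurons (8.62%, 1) and 0 of 5 in non-neuronal nuclei (8.25%, 3), and DESeq2 called none in any of these sums. The non-neuronal estimates nearest the threshold were Nr3c1, with 209.3 and 208.9 CPM in DBA libraries and 186.1 and 176.0 CPM in BL6 libraries (log2 fold change 0.32 ± 0.10, adjusted p = 0.0943, edgeR), and Crhbp, with 0.543 and 1.38 CPM in DBA libraries and 2.65 and 3.25 CPM in BL6 libraries (-1.49 ± 0.50, adjusted p = 0.103, edgeR).

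Of the members, Nr3c2 alone was called for a strain difference that differed between class sums. The strain difference in non-neuronal nuclei minus that in neurons was 0.51 on the log2 scale (adjusted p = 0.0298, edgeR interaction with the library as a block). In this contrast 1 of 7 members and 4.89% of all genes were called. An unadjusted p under 0.05 was found for 4 of the 7, and the share of all genes under that p was not computed. Nr3c2 had 348.3 and 351.9 CPM in non-neuronal nuclei of the DBA libraries and 257.5 and 328.6 CPM in those of the BL6 libraries, against 272.1 and 249.5 CPM in excitatory neurons of the DBA libraries and 293.4 and 325.8 CPM in those of the BL6 libraries. Inhibitory neurons had 269.9 and 221.9 CPM in DBA libraries and 257.3 and 244.7 CPM in BL6 libraries. The Nr3c2 estimate differed in sign between non-neuronal types. It was 0.39 in NN-Astro and 0.22 in NN-OPC, but -0.03 in NN-VLMC, -0.16 in NN-ODC, -0.16 in NN-MGC and -0.36 in NN-Endo-VLMC. Of these only NN-Astro passed. The part of the mix of types in the class difference was not tested. By DESeq2 the adjusted p of the interaction was 0.0354. With edgeR it was 0.0639 with total counts alone and between 0.0934 and 0.322 without DBA library 2, DBA library 3 or BL6 library 2, and 0.00634 without BL6 library 3. Between inhibitory and excitatory neurons 0 of 7 members had a different strain effect, with 0 at an unadjusted p under 0.05, 0 by DESeq2 and a background of 0.0308%.

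The wider stress system was read from 7 lists with 101 genes, chosen with results of these data known. Of those tested, 9 of 91 were called in excitatory neurons, 10 of 92 in inhibitory neurons and 5 of 90 in non-neuronal nuclei, beside backgrounds of 9.67%, 8.62% and 8.25%. All 9 excitatory and all 10 inhibitory calls were lower in DBA, where 6.14% of all genes in excitatory and 5.38% in inhibitory neurons were called lower.

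Among CRH-family ligands and prohormone enzymes, 0 of 6 tested genes were called in excitatory neurons by edgeR (1 at an unadjusted p under 0.05, 0 by DESeq2), 2 of 7 in inhibitory neurons and 0 of 6 in non-neuronal nuclei (2 at an unadjusted p under 0.05, 0 by DESeq2). The list's median log2 fold change was -0.08 in excitatory and -0.11 in inhibitory neurons. Ucn3, which encodes a urocortin that activates CRHR2, fell to 0.700 and 0.415 CPM in inhibitory neurons of the DBA libraries, against 1.73 and 2.55 CPM in those of the BL6 libraries (log2 fold change -1.90 ± 0.43, adjusted p = 0.0166, edgeR). Most of it sat in Inh-Nxph2, 84 of its 115 counts, with 3.11 and 1.26 CPM in DBA libraries and 5.48 and 12.7 CPM in BL6 libraries there (-1.99 ± 0.51, adjusted p = 0.0199, edgeR). The inhibitory call was lost without DBA library 3 (adjusted p = 0.147), without BL6 library 3 (0.0739) and in DESeq2 (0.0561). Pcsk1, a prohormone convertase, had 22.1 and 21.2 CPM in inhibitory neurons of the DBA libraries and 31.2 and 39.7 CPM in those of the BL6 libraries (-0.68 ± 0.14, adjusted p = 0.00858, edgeR), a call lost without DBA library 3 (0.0592). Cpe and Scg5, which also serve peptide processing, had fold changes of -0.11 and -0.15 and did not pass (adjusted p = 0.567 and 0.392, edgeR).

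Of the pituitary-adrenal peptides and receptors, 1 of 6 was called in each neuron class and 0 of 5 in non-neuronal nuclei (edgeR; 1 at an unadjusted p under 0.05, 0 by DESeq2). It was Avp, which encodes vasopressin, a peptide that acts with CRH on the pituitary. It fell to 8.61 and 11.5 CPM in inhibitory neurons of the DBA libraries, against 54.1 and 42.3 CPM in those of the BL6 libraries (log2 fold change -2.24 ± 0.16, adjusted p = 5.7e-06, edgeR). Its highest level was in Inh-Zfhx3, where it had 51.0 and 35.1 CPM in DBA libraries and 182.5 and 272.1 CPM in BL6 libraries, and it was called lower in 7 of 10 types tested. NN-MGC was among the 7, with 0 and 5.93 CPM in DBA libraries and 33.4 and 19.5 CPM in BL6 libraries, and the part of free RNA in such calls was not tested. Adcyap1, Mc4r and Oxtr did not pass in excitatory neurons, with fold changes of 0.17, 0.43 and -0.49.

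Of 14 receptor chaperones and cochaperones, 2 were called in each class, all lower in DBA. Hspa8, the constitutive Hsp70 chaperone, had 27.2 and 35.5 CPM in excitatory neurons of the DBA libraries and 105.4 and 83.5 CPM in those of the BL6 libraries (-1.56 ± 0.14, adjusted p = 1.5e-05, edgeR), and it was called lower in 16 of 20 types. Dnaja1, an Hsp40 cochaperone, had 54.5 and 54.9 CPM in excitatory neurons of the DBA libraries and 82.3 and 70.1 CPM in those of the BL6 libraries (-0.46 ± 0.11, adjusted p = 0.0137, edgeR), and was called lower in 6 of 20 types. The excitatory call was lost without DBA library 3 (adjusted p = 0.0693, edgeR) or BL6 library 2 (0.154). The Hsp90 genes Hsp90aa1 and Hsp90ab1 had fold changes of -0.49 and -0.43 in excitatory neurons and did not pass there (adjusted p = 0.281 and 0.277, edgeR). Hsp90aa1 ran from -0.10 without BL6 library 2 to -0.77 without BL6 library 3, where it passed (adjusted p = 1.61e-05, edgeR). Hsp90ab1 ran from -0.17 without BL6 library 2 to -0.68 without DBA library 3, and it passed without DBA library 3 (adjusted p = 0.0426, edgeR) or BL6 library 3 (0.0123).

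Of 22 tested transcripts known to respond to glucocorticoids, 5 were called in excitatory neurons and 3 in inhibitory neurons, all lower in DBA, and of 23 tested in non-neuronal nuclei 0 were called (edgeR; 4 at an unadjusted p under 0.05, 0 by DESeq2). The list's median log2 fold change was -0.25 in excitatory neurons, -0.30 in inhibitory neurons and -0.28 in non-neuronal nuclei, where the medians of all genes were -0.0022, -0.0036 and -0.0096. Tiparp had 13.5 and 14.2 CPM in excitatory neurons of the DBA libraries and 27.1 and 39.0 CPM in those of the BL6 libraries (-1.22 ± 0.17, adjusted p = 3.8e-04, edgeR). Glul, which makes glutamine, had 2.61 and 2.42 CPM in excitatory neurons of the DBA libraries and 6.32 and 8.19 CPM in those of the BL6 libraries (-1.49 ± 0.25, adjusted p = 0.00119, edgeR), levels far below the 184.1 to 335.8 CPM of non-neuronal nuclei. The metallothioneins Mt1 and Mt2 had fold changes of -0.89 and -1.37 in excitatory neurons (adjusted p = 0.00402 and 0.0197, edgeR). The Mt2 call was lost without DBA library 2, DBA library 3 or BL6 library 3 (adjusted p 0.0560 to 0.0863, edgeR) and in DESeq2 (0.103). In the same excitatory sums the 5 astrocyte markers came to 16.6 and 14.3 CPM in DBA libraries and 21.6 and 44.2 CPM in BL6 libraries, and the 5 oligodendrocyte markers to 82.8 and 80.7 CPM in DBA libraries and 113.7 and 111.2 CPM in BL6 libraries, with each gene of both lists detected. The part of these glial markers in the calls of the list was not tested.

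Many of these transcripts, like Fkbp5, stood highest in BL6 library 3. In non-neuronal nuclei 19 of 23 list genes with 10 or more counts in at least 2 libraries had their highest level in BL6 library 3, against 31.0% of all 17411 genes; in excitatory neurons it was 17 of 23, against 28.5%, and in inhibitory neurons 14 of 22, against 29.9%. Sgk1, a kinase gene induced through the receptor, had 57.6 and 59.7 CPM in non-neuronal nuclei of the DBA libraries and 60.9 and 99.1 CPM in those of the BL6 libraries. Per1, a clock gene, had 17.0 and 22.0 CPM in DBA libraries and 25.5 and 47.2 CPM in BL6 libraries there, and Zbtb16 had 43.2 and 44.0 CPM in DBA libraries and 31.0 and 68.7 CPM in BL6 libraries; these 3 genes were chosen after their values were seen. In each of these 3 BL6 library 3 was above the other 3 libraries, which lay closer together, whereas Tiparp and Glul in excitatory neurons, given above, had both BL6 libraries above both DBA libraries. Fkbp5 in non-neuronal nuclei had 39.1 and 29.0 CPM in DBA libraries and 36.3 and 79.8 CPM in BL6 libraries.

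The remaining lists held few calls. Of 14 receptor coregulators 1 was called in each neuron class, Ncoa2, with 143.0 and 140.2 CPM in excitatory neurons of the DBA libraries and 189.0 and 198.7 CPM in those of the BL6 libraries (-0.43 ± 0.10, adjusted p = 0.00936, edgeR), a call lost without DBA library 3 (0.0529). Ncor1, Nrip1 and Ppargc1a did not pass, though Nrip1 did without DBA library 2 (-0.64, adjusted p = 0.00695, edgeR). Of glucocorticoid metabolism and transport genes 0 of 7 were called in excitatory neurons, 0 of 7 in inhibitory neurons and 0 of 6 in non-neuronal nuclei by edgeR (3, 1 and 0 at an unadjusted p under 0.05, and 0 by DESeq2 in each). They include the hormone-activating enzyme gene Hsd11b1 with a fold change of -1.13 in excitatory neurons (adjusted p = 0.109), which ran from -0.47 without BL6 library 3 (0.512) to -1.68 without BL6 library 2, where it passed (0.00101), and the efflux pump genes Abcb1a and Abcb1b with -1.11 and -0.60 (adjusted p = 0.136 and 0.0713), and H6pd, which supplies that enzyme's cofactor, with 0.41 (adjusted p = 0.441, edgeR for all 4). Abcb1b passed without BL6 library 2 (-0.83, adjusted p = 0.0271, edgeR) and with every row of the table (0.0381). Of 22 CRH receptor signalling genes, 0 were called in excitatory neurons (2 at an unadjusted p under 0.05, 0 by DESeq2), 1 in inhibitory neurons and 3 in non-neuronal nuclei by edgeR. Grk3, a kinase that acts on G-protein-coupled receptors, had 168.5 and 174.5 CPM in non-neuronal nuclei of the DBA libraries and 252.0 and 303.4 CPM in those of the BL6 libraries (-0.58 ± 0.12, adjusted p = 0.0114, edgeR), a call lost without DBA library 2 (0.200) or DBA library 3 (0.136). The adenylyl cyclase genes Adcy8 and Adcy2 were higher in DBA there, by 0.71 ± 0.12 and 0.42 ± 0.11 (adjusted p = 0.00311 and 0.0366, edgeR), whereas Rapgef4, at -0.42, did not pass (adjusted p = 0.0645), though it did without BL6 library 2 (0.0346), with total counts alone (0.0280) and with every row of the table (0.0345). The Adcy8 call was lost without DBA library 2 (adjusted p = 0.0788, edgeR), and the Adcy2 call was lost without any library but BL6 library 3 (0.0826 to 0.274) and with total counts alone (0.0849).

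Chromatin accessibility was read from the ATAC counts at 131 peaks within 10 kb of the members: 4 at Crh, 9 at Crhr1, 11 at Crhr2, 8 at Crhbp, 18 at Nr3c1, 58 at Nr3c2 and 23 at Fkbp5. Starts were judged for the 5 genes with a matched promoter. A peak lay at the RefSeq start, within 250 bases, in Crhr1, Nr3c2 and Fkbp5, whose promoters were the richest in GC. None lay there in Crhr2 or Crhbp. Crh and Nr3c1 matched no promoter, so whether a peak lay at their starts was not judged. The Fkbp5 start peak had 38.0 and 32.5 CPM in DBA libraries and 31.9 and 33.1 CPM in BL6 libraries over all nuclei. By type it ran from 55.0 ± 7.50 CPM in NN-MGC, the third highest type for Fkbp5 RNA by CPM, to 23.7 ± 7.10 CPM in Inh-Drd2 (SD, n = 4 each). The Nr3c2 start peak had 31.4 and 32.1 CPM in DBA libraries and 30.6 and 33.1 CPM in BL6 libraries over all nuclei. The promoter starts used for Nr3c2 and Crhr1 lie inside the genes as placed above. At Nr3c2 a further peak, chr8:76898643-76901038, lies nearer the gene's annotated 5′ end. The tallest Nr3c1 peak was likewise highest in NN-MGC, at 132.0 ± 30.8 CPM, the type that led for Nr3c1 RNA by CPM. The Crhr1 start peak was highest by mean in Inh-Lypd6b (39.9 ± 6.47 CPM) and Inh-Tshz1 (34.1 ± 3.01 CPM), the types that also led for mean Crhr1 RNA. Exc-Abi3bp, at 33.4 ± 0.669 CPM, lay within the SD of Inh-Tshz1. Neighbours in the Crhr1 RNA order overlapped too, as given above, so neither order is resolved. Crh had 1 peak over the gene, highest in Inh-Lypd6b (22.3 ± 3.75 CPM) and not in Inh-Htr3a (16.0 ± 4.85 CPM), although Crh RNA was highest there.

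Crhbp had its most accessible peaks in the type that carried its RNA. The peak chr13:95443188-95444290, within the gene near its start, had 23.1 and 24.1 CPM in Inh-Sst of the DBA libraries and 21.5 and 18.4 CPM in Inh-Sst of the BL6 libraries, and the next type averaged 8.33 ± 4.39 CPM. The peak chr13:95439533-95439906, also within the gene, had 12.7 and 18.0 CPM in Inh-Sst of the DBA libraries and 15.2 and 18.6 CPM in Inh-Sst of the BL6 libraries, against an average of 2.83 ± 0.812 CPM in the next type. For both peaks the 4 Inh-Sst libraries lay above every library of the other 15 types. These peaks were chosen after their values were seen, and neither differed between strains past the threshold in any of the 3 sums (adjusted p 0.306 to 0.992, edgeR). The peak positions are those of the deposited table (build mm10 per the submitters' processing notes).

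Strain differences in accessibility were found at 1 of the 131 peaks. In all nuclei 1 of 131 was called and 6.18% of all peaks; in excitatory neurons 1 of 130 and 4.71%; in inhibitory neurons 0 of 129 and 3.26%, with 5 at an unadjusted p under 0.05 and 0 by DESeq2 (edgeR with adjustment over all peaks). The called peak, chr13:95424726-95426161, lies 5215 bases beyond the 3′ end of Crhbp and overlaps no RefSeq gene. In excitatory neurons it fell to 5.22 and 5.20 CPM in DBA libraries, against 8.96 and 9.10 CPM in BL6 libraries, a log2 fold change of -0.75 ± 0.13 (adjusted p = 1.15e-05, edgeR). By type, without a test, it had 4.44 and 4.2 CPM in Exc-Ebf2 of the DBA libraries and 11.8 and 10.9 CPM in Exc-Ebf2 of the BL6 libraries, and 5.86 and 4.95 CPM in Exc-Tafa1 of the DBA libraries and 11.1 and 11.5 CPM in Exc-Tafa1 of the BL6 libraries. In Exc-Vwa5b1 the strains overlapped, with 3.65 and 3.71 CPM in DBA libraries and 4.22 and 2.97 CPM in BL6 libraries, and in Exc-Abi3bp, Exc-Strip2 and Exc-Tfap2c both DBA libraries lay below both BL6 libraries. In all nuclei it had 6.05 and 5.23 CPM in DBA libraries and 8.23 and 8.46 CPM in BL6 libraries (-0.51 ± 0.11, adjusted p = 1.57e-04, edgeR), a call lost without BL6 library 3 (adjusted p = 0.0869). In inhibitory neurons it had 7.11 and 5.50 CPM in DBA libraries and 7.15 and 7.79 CPM in BL6 libraries (-0.20 ± 0.14, adjusted p = 0.618, edgeR); the difference between these classes was not tested. By type the peak was highest in Inh-Sst, at 20.8 ± 5.99 CPM, where the strains overlapped, and Crhbp RNA in excitatory neurons was 0.871 and 1.17 CPM in DBA libraries and 1.12 and 0.651 CPM in BL6 libraries.

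**Figure D5:**
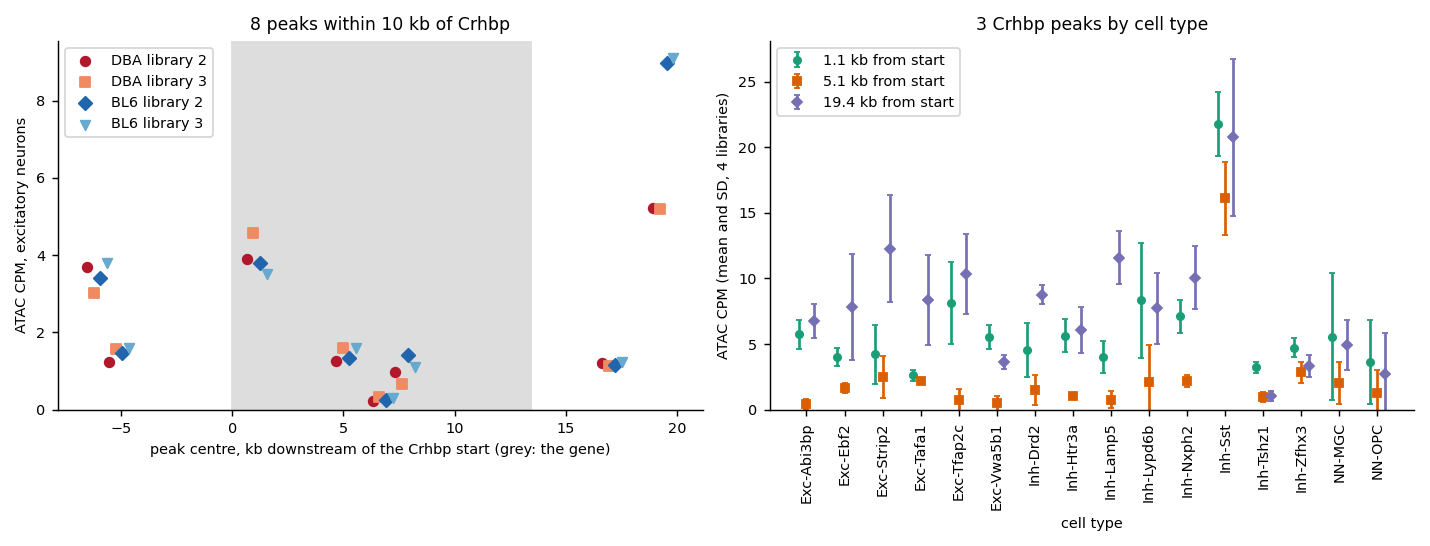
Left, ATAC CPM of the 8 peaks within 10 kb of Crhbp in excitatory neurons, 1 point per library, by distance from the gene's start (kb, positive downstream; points of 1 peak are set side by side). Right, mean and SD over 4 libraries of 3 of these peaks in 16 cell types: all 3 are highest in Inh-Sst, and the farthest is the peak lower in DBA excitatory neurons, at 5.22 and 5.20 CPM in DBA and 8.96 and 9.10 CPM in BL6.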

How the data were processed

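Single-nucleus RNA and ATAC tables of mouse amygdala were used as deposited. The authors had summed the RNA counts of each gene, and the ATAC counts of each peak, over the nuclei that they placed in a cell type of a library, and a further table gives how many nuclei these were, also counts. Tool names come from the submitters' processing notes (Cell Ranger 6.0.2, Cell Ranger ATAC 2.0.0, Seurat 4.0.5, build mm10). Filters on nuclei, doublet removal, strand use and the peak caller are not given in the sources used here. The sums carry no barcodes, so doublets and barcodes shared between libraries could not be counted. The 16 methylation samples, from 8 strains, were not analysed here. Column names tie a library to a strain, but their numbers 2 and 3 match no sample title (1 and 2), so libraries are called by the tables' numbers. Nothing says whether the 2 libraries of a strain came from separate groups of animals, and p-values measure only the spread between these libraries, which may be technical.

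CPM were computed from the counts over all genes or peaks of a column. Strain differences are DBA minus BL6 on the log2 scale, from edgeR 4.0.16 (TMM, filterByExpr with a minimum count of 10, robust quasi-likelihood) on genes or peaks with 10 or more counts in each strain, with Benjamini-Hochberg adjustment over all of them and a threshold of 0.05. A standard error is the size of the fold change divided by the square root of the F statistic. Exc-Strip2 and NN-Endo-SMC-Peri were too small to test in RNA. Class sums took the types whose names begin with Exc, Inh or NN, so Neuronal-Aldoa-Cst3 entered only the sum over all nuclei. The alternatives were RLE scaling, total counts alone, no filter, every row of the table, DESeq2 1.42.0, leaving out each library, a replicate block, 2 kb in place of 10 kb around genes, and a minimum of 200000 counts and 30 nuclei per type. Scripts were tested on simulated data. The members, gene lists and markers were chosen with earlier results of these data known. All 7 members are described. In each list, up to 4 genes with the smallest p in the class with the most calls are named, and the genes given as like a member are the 3 with the highest correlation. Same-numbered libraries deviated from their strain means with a correlation of -0.317 over all nuclei. It was -0.0726 in excitatory neurons, -0.019 in inhibitory neurons and -0.175 in non-neuronal nuclei. The numbers were therefore not taken to pair the libraries.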

Additional observations from a re-analysis of the deposited data

Results flagged for a closer look

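Genes were looked at again where the strain difference itself differed between cell classes by the interaction test (edgeR, adjusted over all genes; 4.89% of genes were called). The values are the strain difference (DBA minus BL6, log2) in non-neuronal nuclei minus that in neurons. Nr3c2 had 0.511. Among the named genes of the wider lists, Adcy2 had 0.380, Adcy8 0.674, Glul 0.764, Mt2 1.14 and Tiparp 1.18. Hsp90aa1 had -0.475. Each library adds the same nuclei to all of these values, so they are not independent.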

How the results depend on the processing

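Of the 3 member-by-type calls, Fkbp5 in NN-OPC alone was made with total counts alone, and Nr3c2 in NN-Astro alone in DESeq2. Without a filter 6 calls were made: the same 3, Crhr2 in Inh-Sst, Fkbp5 in NN-MGC and Nr3c2 in Exc-Tafa1. The called pairs changed when a library was left out. Neither NN-Astro call was kept in any of these fits, and Fkbp5 in NN-OPC was lost without BL6 library 3. Pairs outside the 3 were called in each of these fits. Leaving out a library gave 0 to 1 member calls in inhibitory neurons, 0 to 1 in non-neuronal nuclei and 0 to 2 between non-neuronal nuclei and neurons, a contrast that also had 0 with total counts alone. For the wider lists it gave 8 to 14 calls in excitatory neurons, 6 to 11 in inhibitory neurons and 1 to 21 in non-neuronal nuclei, against 9, 10 and 5 with all libraries; the 21 came without BL6 library 2, and without BL6 library 3 it was 15, without DBA library 3 it was 3 and without DBA library 2 it was 1. Peak calls became 0 to 2 in all nuclei, 1 to 3 in excitatory neurons and 0 to 2 in inhibitory neurons, and within 2 kb they were 0 in all nuclei and 0 in excitatory neurons. The sign turned for Crhbp in Inh-Sst (-0.12 without BL6 library 2, up to 0.64 without BL6 library 3), Mc4r in excitatory neurons (-0.12 without DBA library 3, up to 0.73 without DBA library 2) and Nr3c1 in NN-MGC (-0.017 without DBA library 3, up to 0.16 without DBA library 2). The causes were not tested. Under a replicate block, which the libraries' numbers do not justify, 3 member-by-type calls were made: both NN-Astro calls were lost (adjusted p = 0.0632 for Nr3c1 and 0.0694 for Nr3c2), Fkbp5 in NN-OPC passed, and so did Crhr2 in Inh-Sst (0.93, adjusted p = 0.0373) and Fkbp5 in NN-MGC (-0.58, adjusted p = 0.0425; edgeR for all). Crossed pairing, added after seeing the data, gave 6 member-by-type calls, 1 in non-neuronal nuclei, 15 and 9 list genes in excitatory neurons and non-neuronal nuclei, and 2 peaks in all nuclei. Low counts limited the tests of Crh, Crhr2 and Crhbp to few types.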
